A study of Mus musculus with 10 samples.

Results

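The genes described here are the stefin A cluster of mouse chromosome 16 (Stfa1, Stfa2, Stfa3, Stfa2l1, BC100530 and BC117090) and the Serpinb3 cluster of mouse chromosome 1 (Serpinb3a, Serpinb3b, Serpinb3c and Serpinb3d). They were taken by gene symbol, which gave 10 genes of the 24358 in the count tables, and all 10 were among the 16083 that passed the filter on low counts. RNA was sequenced from full-thickness dorsal skin of 5 C57Bl/6 mice, each of which gave 1 lesional and 1 uninvolved biopsy, so there were 10 libraries. Mice 2237, 2275 and 2296 carried the label IL-17C+, and mice 2392 and 2465 the label IL-17C+KO, in which the knocked-out gene is Il6 according to the series title. All 5 mice therefore carried the IL-17C+ label, no mouse without it was analysed here, and all were 10 or 14 weeks old. No source used here gives the age of each mouse or the promoter that drives IL-17C. The series compares lesional with uninvolved skin within each genotype.

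Stefins are small cystatin-type proteins that stay inside the cell and block papain-like cysteine proteases such as the cathepsins. The mouse has several tandem copies of the gene for stefin A, known for expression in stratified epithelium and, for some copies, in neutrophils. The Serpinb3 genes are the mouse relatives of the human squamous cell carcinoma antigens. These are intracellular clade B serpins that trap a protease through an exposed loop near the end of the protein, and some of them act on cysteine proteases. Both families are abundant in inflamed epidermis.

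Each library held between 21056850 and 31072491 counts, and 3 counts in a library came to between 0.0966 and 0.143 CPM (counts scaled to library size). Counts of Il6, the knocked-out gene, were not lower under the knockout label. The 4 libraries labelled IL-17C+KO held 55 to 315 Il6 counts and the 6 labelled IL-17C+ held 4 to 69. Gene counts do not show whether a transcript is functional, and the cause was not tested, so the genotype is given as a label throughout. Il17c, the gene in the label of every mouse, lay between 535 and 15175 CPM. As checks of tissue, the 6 basal keratinocyte markers summed to 4960 to 13768 CPM and the 11 differentiated keratinocyte markers to 7979 to 30252 CPM. Muscle and hair were also present in unequal amounts, with summed muscle markers from 491 to 34570 CPM and summed hair follicle markers from 21.5 to 10198 CPM.

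Because the copies in each cluster are near relatives, their sequences bear on how far the counts can be told apart. The stefin genes lie within a short stretch of chromosome 16 and each has 3 exons (GRCm38, GENCODE M21): Stfa2l1 at chr16:36156811-36161953, Stfa1 at chr16:36276951-36285373, BC117090 at chr16:36321665-36334332, BC100530 at chr16:36359382-36367748, Stfa2 at chr16:36403992-36408457 and Stfa3 at chr16:36450537-36455392. Coding sequences were 291 to 387 bases long, and identity over the 15 pairs of stefin genes ran from 56.5 to 96.5% with a median of 75.3%. Stfa2 and Stfa2l1 were the closest pair, at 96.5%, and BC100530 and BC117090 followed at 95.2%. These pairs are shown over 90 coding bases, counted from the A of the start codon, with the bases that differ inside a pair in capitals. The first pair differs at 6 of the 90 bases and the second at 2.
Stfa2, coding bases 1 to 90: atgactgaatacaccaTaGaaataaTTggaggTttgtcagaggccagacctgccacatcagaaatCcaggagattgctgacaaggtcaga
Stfa2l1, coding bases 1 to 90: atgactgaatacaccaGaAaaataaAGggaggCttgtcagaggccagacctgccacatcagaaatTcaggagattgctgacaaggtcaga
BC100530, coding bases 31 to 120: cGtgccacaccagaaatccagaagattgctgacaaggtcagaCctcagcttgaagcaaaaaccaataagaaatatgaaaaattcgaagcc
BC117090, coding bases 28 to 117: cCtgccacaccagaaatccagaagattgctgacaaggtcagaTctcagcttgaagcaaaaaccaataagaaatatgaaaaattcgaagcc

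Of the 50-base windows of each stefin transcript, the share found unchanged in a transcript of another gene was 0.0% for Stfa3, 15.9% for Stfa2, 24.6% for Stfa2l1, 25.4% for Stfa1, 33.5% for BC100530 and 33.7% for BC117090. No source used here says how a read that fits several genes was counted, so the split between BC100530, BC117090 and Stfa1, and between Stfa2 and Stfa2l1, is uncertain, while Stfa3 shared no such window.

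The Serpinb3 genes lie on the reverse strand of chromosome 1, at chr1:107045587-107052303 (Serpinb3a), chr1:107078167-107083506 (Serpinb3d), chr1:107153940-107278361 (Serpinb3b) and chr1:107271201-107278371 (Serpinb3c). The Serpinb3b model overlaps Serpinb3c on the same strand, so reads of these 2 genes may not be fully separable. Their coding sequences were 86.3 to 93.1% identical over 6 pairs, and 12.2 to 15.1% of the 50-base windows of each transcript recurred in another gene. The 60 coding bases in which the 4 genes differ most from Serpinb3a lie near the end of the reading frame and are printed for that reason, with the bases that differ from Serpinb3a in capitals. Serpinb3b differs from it at 4 of the 60 bases, Serpinb3c at 11 and Serpinb3d at 24.
Serpinb3a, coding bases 1010 to 1069: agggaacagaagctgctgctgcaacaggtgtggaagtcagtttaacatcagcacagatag
Serpinb3b, coding bases 1010 to 1069: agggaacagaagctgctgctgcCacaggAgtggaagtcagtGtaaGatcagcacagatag
Serpinb3c, coding bases 1010 to 1069: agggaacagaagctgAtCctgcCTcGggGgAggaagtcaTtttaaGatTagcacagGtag
Serpinb3d, coding bases 1010 to 1069: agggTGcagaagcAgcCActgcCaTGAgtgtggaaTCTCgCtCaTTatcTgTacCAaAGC

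Per unit of length, on the deposited FPKM scale, the stefin genes followed the order BC100530, Stfa3, Stfa1, BC117090, Stfa2 and Stfa2l1 by median level in both skin types. In lesional skin the medians over 5 mice were 5453 FPKM for BC100530, 4864 for Stfa3, 2213 for Stfa1, 1531 for BC117090, 123.8 for Stfa2 and 48.6 for Stfa2l1. In uninvolved skin they were 2555, 1023, 960, 706.7, 50.5 and 6.44 FPKM in the same order. BC100530 and Stfa3 were not separated beyond their spread, since BC100530 was the higher in 4 of 5 uninvolved and 2 of 5 lesional libraries. Stfa1 stood above BC117090, and BC117090 above Stfa2, in 5 of 5 libraries of each skin type. The ranges over mice of all neighbours overlapped except those of BC117090 and Stfa2 in lesional skin.

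The order of BC100530 and Stfa3 also rests on the length used. CPM divided by FPKM gave a median implied length of 0.211 to 0.272 kb for the 6 stefin genes, which is shorter than their coding sequences. With CPM per kb of the GENCODE transcript instead, Stfa3 stood first in lesional skin at a median of 2658, above BC100530 at 2299, and was the higher of the pair in 5 of 5 libraries.

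Among the serpins, Serpinb3a and Serpinb3b carried nearly all of the signal. Lesional medians were 103 FPKM for Serpinb3a, 53.4 for Serpinb3b, 2.65 for Serpinb3c and 2.13 for Serpinb3d. Uninvolved medians were 70.0, 38.3, 1.80 and 1.42 FPKM. Serpinb3b stood above Serpinb3c in 5 of 5 libraries of each skin type with ranges that did not overlap, whereas Serpinb3c and Serpinb3d overlapped in both. Serpinb3a was above Serpinb3b in 5 of 5 lesional but only 3 of 5 uninvolved libraries.

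**Figure D1:**
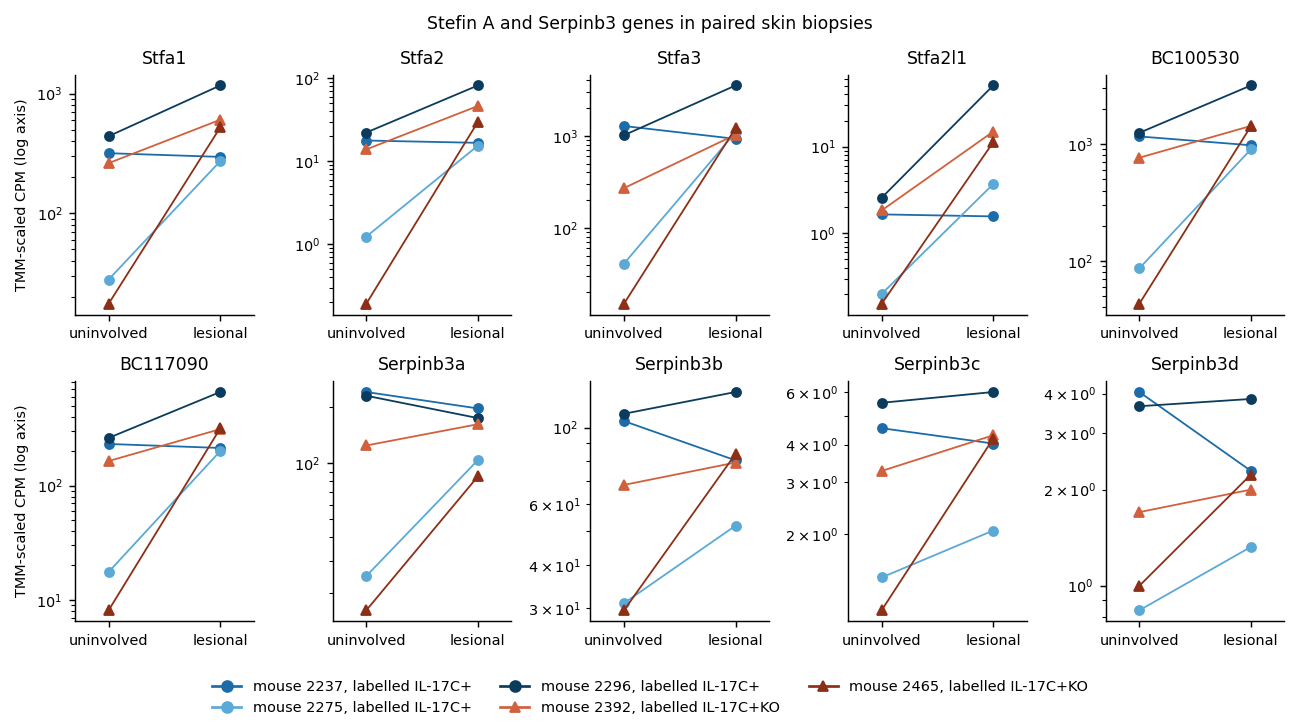
Level of each of the 10 genes in TMM-scaled CPM (vertical log axis, a different range in each panel) in the uninvolved and lesional biopsy of each mouse; a line joins the biopsies of 1 mouse, and triangles mark the label IL-17C+KO. The lines of mouse 2237 run flat or down, and the uninvolved biopsies of mice 2275 and 2465 lie at the bottom of every panel.

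Stfa3, an inhibitor of cathepsin-type proteases like the other stefins, shows the pattern of the cluster. In uninvolved skin its level, in CPM scaled by the trimmed mean of M values (TMM), was 1280 in mouse 2237, 40.8 in 2275, 1016 in 2296, 270 in 2392 and 14.97 in 2465. In lesional skin it was 928, 1095, 3533, 1032 and 1215 CPM in the same mice. The uninvolved biopsies thus spanned 85.5-fold and the lesional ones 3.81-fold. The low values were the uninvolved skin of mice 2275 and 2465, the high one was the lesional skin of mouse 2296, and the skin types overlapped.

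BC100530, the stefin with the highest median FPKM, repeated this pattern. It stood at 1164, 86.4, 1250, 766 and 43.0 CPM in the uninvolved skin of mice 2237, 2275, 2296, 2392 and 2465, and at 978, 904, 3180, 1432 and 1423 CPM in their lesional skin. Its near-copy BC117090 followed it closely: the ratio of BC117090 to BC100530 counts stayed between 0.188 and 0.222 over the 10 libraries. Since the pair shares sequence, part of this constancy may not be independent measurement.

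Stfa1, also an abundant copy, ran from 17.5 to 440.5 CPM in uninvolved skin (median 262) and from 272.5 to 1171 CPM in lesional skin (median 522). Stfa2, a weakly expressed copy, had 0.192 to 22.2 CPM in uninvolved and 15.4 to 82.0 CPM in lesional skin. Its lowest library, the uninvolved skin of mouse 2465, held 5 counts.

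Stfa2l1, the near-copy of Stfa2, was the rarest of the 6 and departed most from the shared pattern. Its uninvolved values were 1.65 CPM in mouse 2237, 0.199 in 2275, 2.56 in 2296, 1.83 in 2392 and 0.154 in 2465, which are 4 to 52 counts. Its lesional values were 1.57, 3.69, 50.8, 14.9 and 11.2 CPM, or 52 to 1294 counts. Unlike the other 5, Stfa2l1 spanned a wider range in lesional skin (32.4-fold) than in uninvolved skin (16.7-fold), and relative to Stfa3 its counts varied 11.2-fold over the libraries.

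Serpinb3a, a serpin with inhibitory activity against proteases of the papain and chymotrypsin types, stood at 242, 24.7, 231, 125 and 16.2 CPM in the uninvolved skin of mice 2237, 2275, 2296, 2392 and 2465. Its lesional levels were 197, 104, 175, 162 and 85.0 CPM. The same 2 uninvolved biopsies as for the stefins, those of mice 2275 and 2465, were low, but the lesional biopsy of mouse 2296 was not high. Serpinb3b ran from 29.5 to 109.7 CPM in uninvolved and from 52.0 to 126.9 CPM in lesional skin. Serpinb3c lay between 1.11 and 6.00 CPM and Serpinb3d between 0.837 and 4.04 CPM over all 10 libraries, with as few as 21 counts.

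As a share of all counts in a library, the 6 stefin genes took between 0.0083% (uninvolved skin of mouse 2465) and 0.841% (lesional skin of mouse 2296). The 4 Serpinb3 genes took between 0.00473 and 0.0337%. In bulk skin, fewer cells of a type and less RNA per cell cannot be told apart in any of these values.

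**Figure D2:**
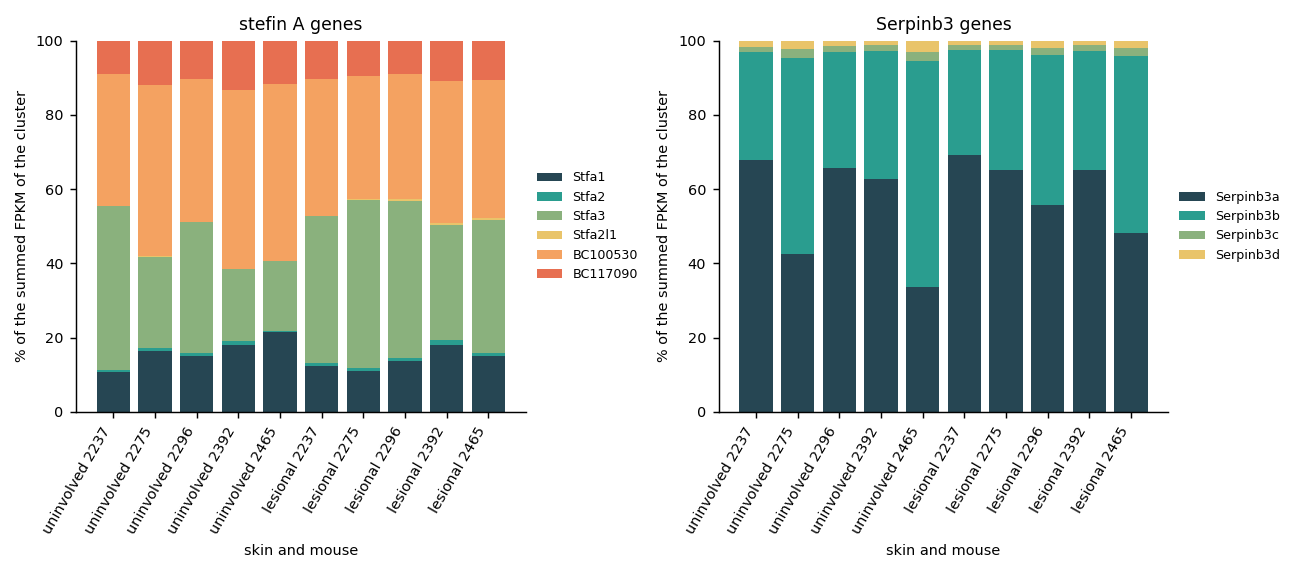
Share of each gene in the summed FPKM of its cluster (vertical axis, %) in each library (horizontal axis, skin and mouse), stefin A genes on the left and Serpinb3 genes on the right. BC100530 and Stfa3 fill most of the stefin bars, and the Serpinb3a share is lowest in the uninvolved skin of mice 2275 and 2465.

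The makeup of each cluster also shifted between libraries. Stfa3 made up 18.9 to 45.4% of the summed stefin FPKM and BC100530 33.3 to 48.2%, whereas Stfa2l1 never passed 0.605%. The ratio of Stfa3 to BC100530 counts was 1.10, 0.473, 0.813, 0.353 and 0.348 in the uninvolved skin of mice 2237, 2275, 2296, 2392 and 2465, and 0.949, 1.21, 1.11, 0.721 and 0.854 in their lesional skin. It was the higher in lesional skin in every mouse but 2237. In the Serpinb3 cluster the ratio of Serpinb3a to Serpinb3b counts ran from 0.549 to 2.45, with the 2 lowest values, 0.549 and 0.799, in the uninvolved skin of mice 2465 and 2275. The ratios of Serpinb3c and Serpinb3d to Serpinb3b varied only 1.44-fold and 1.56-fold.

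Within each mouse, the direction was shared by almost all members. All 10 genes were higher in the lesional biopsy of mice 2275, 2392 and 2465, 9 of 10 were higher in mouse 2296 (all but Serpinb3a, at -0.40 on the log2 CPM scale), and all 10 were lower in mouse 2237. Of all 16083 genes tested, 50.9% were lower in lesional skin of mouse 2237, and 49.8%, 48.5%, 48.7% and 50.1% were higher in that of mice 2275, 2296, 2392 and 2465. The differences in mouse 2237 were small, from -0.80 (Serpinb3d) to -0.07 (Stfa2l1). So 9 of the 10 members were higher in at least 4 of 5 mice, against 29.6% of all genes, and none was higher in 5 of 5, against 9.13%.

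The within-mouse difference was largest in mouse 2465 and next largest in mouse 2275 in both clusters. For the stefin genes the median log2 difference, lesional minus uninvolved, was -0.11 in mouse 2237, 3.54 in 2275, 1.604 in 2296, 1.47 in 2392 and 5.44 in 2465. For the Serpinb3 genes it was -0.34, 0.68, 0.10, 0.30 and 1.67. The median of all genes lay between -0.02 and 0.00 in the 5 mice. In each mouse the stefin median exceeded the Serpinb3 median, by 0.23 (mouse 2237) to 3.76 (mouse 2465) log2 units.

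**Figure D3:**
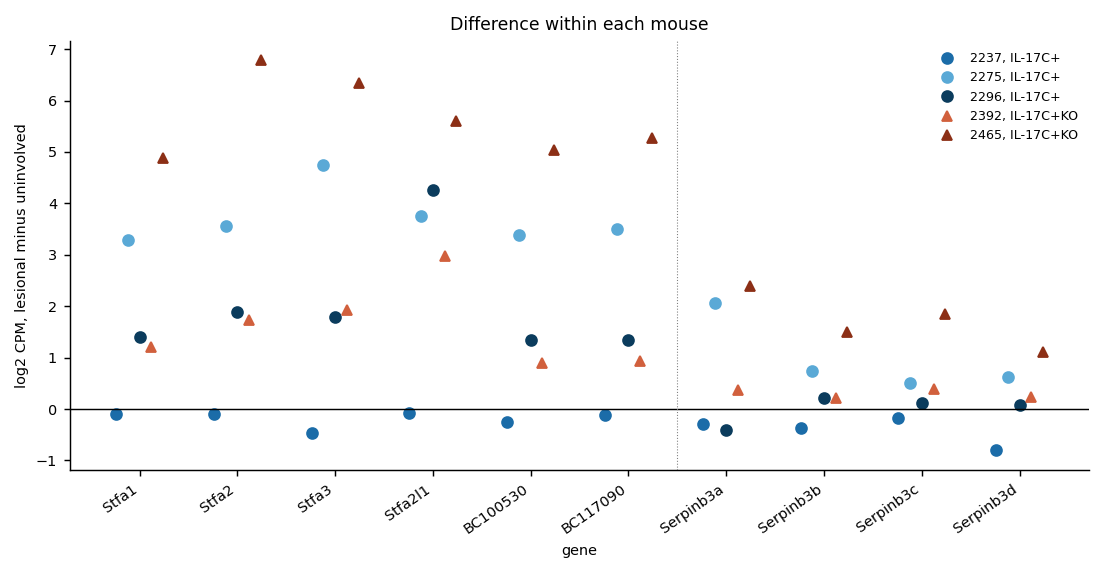
Difference in log2 CPM between the lesional and the uninvolved biopsy of each mouse (vertical axis) for the 10 genes (horizontal axis), 1 point per mouse. Mouse 2465 is highest for every gene, mouse 2237 lies below 0 for every gene, and the stefin points (left of the dotted line) spread further up than the Serpinb3 points.

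Lesional and uninvolved skin were first compared over all 5 mice, with the mouse as a block in edgeR's quasi-likelihood test. The 6 stefin genes had log2 fold changes of 1.99 to 3.48 (higher in lesional skin). Their standard errors, derived from the F statistic of the test, were 0.74 to 1.07. The 4 Serpinb3 genes had log2 fold changes of 0.24 to 0.81. None of the 10 members passed a false discovery rate (FDR) of 0.05, which only 0.0497% of all genes passed. Stfa2l1 had the largest estimate, a log2 fold change of 3.48 ± 0.85 (SE, 5 mice; adjusted p = 0.108 by edgeR). Stfa3 followed at 2.79 ± 1.07 (adjusted p = 0.194) and Stfa2 at 2.50 ± 0.94 (adjusted p = 0.188). The estimates of Stfa1, BC117090 and BC100530 were 2.07 ± 0.74, 2.07 ± 0.83 and 1.99 ± 0.81.

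At an unadjusted p under 0.05, all 6 stefin genes were higher in lesional skin, against 10.1% of all genes, with a median log2 fold change of 2.28 beside -0.01 for all genes. None of the 4 Serpinb3 genes reached it, and their median was 0.49. Serpinb3a was estimated at 0.81 ± 0.49 and Serpinb3b at 0.46 ± 0.27, with Serpinb3c at 0.53 ± 0.34 and Serpinb3d at 0.24 ± 0.33 (SE, 5 mice). DESeq2, run as an alternative, called all 6 stefin genes higher at FDR 0.05, where it called 6.25% of all genes higher, and none of the Serpinb3 genes. Its adjusted p ran from 7.41e-07 (Stfa2l1) to 0.0431 (Stfa2), so for this cluster the call rests on the tool.

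Single mice also decided how many stefin genes reached an unadjusted p under 0.05. Without mouse 2275 only 1 of 6 did, without 2296 or 2392 2 of 6, without 2465 3 of 6, and without 2237 all 6. The count over all genes moved too. In the same order of mice, genes higher at that threshold numbered 1009 of 15967, 1641 of 15984 and 1192 of 16465. Without 2465 they were 1032 of 16381, and without 2237 they were 2220 of 15934. Without mouse 2237, Stfa2l1 was the only member past FDR 0.05 (1249 of 15934 genes passed, 538 of them higher in lesional skin). Its log2 fold change was 4.24 ± 0.50 (SE, 4 mice, adjusted p = 0.0219 by edgeR). Without the mouse block, 1 of 6 reached the unadjusted threshold (1699 of 16083 genes were higher at it). The estimate of Stfa3 was then 1.93 in place of 2.79.

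Within the 3 IL-17C+ mice, the stefin estimates were positive but smaller, with a median log2 fold change of 1.66 beside -0.02 for all genes. The median was 0.66 without mouse 2275 and 2.57 without mouse 2237. No member passed FDR 0.05 in edgeR, nor did any gene at all (0% called), and 1031 of 16083 genes had an unadjusted p under 0.05. Stfa2l1, at 2.87 ± 1.13 (SE, 3 mice), was the only member among them (3.54% of all genes were higher at that threshold), and the only member that DESeq2 called (adjusted p = 0.0342 by DESeq2; 0.964% of all genes called higher). The Serpinb3 genes had a median of 0.17, from -0.05 (Serpinb3d) to 0.42 (Serpinb3a), and which of them lay above 0 changed with the mice included: without mouse 2275 all 4 were below 0.

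Within the 2 mice labelled IL-17C+KO, the stefin median was 3.55 beside 0.00 for all genes, and the Serpinb3 median was 0.997. No member passed FDR 0.05 in edgeR, which 0.0124% of all genes did. Stfa2l1 (4.29 ± 1.32, SE, 2 mice), Stfa2 (4.01 ± 1.61) and Stfa1 (3.05 ± 1.23) had an unadjusted p under 0.05, against 6.16% of all genes in that direction. DESeq2 called all 6 stefin genes higher, where it called 3.13% of all genes higher. These estimates join a very large difference in mouse 2465 with a modest one in mouse 2392. Without mouse 2465 the stefin median was 1.47, and without mouse 2392 it was 5.71.

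**Figure D4:**
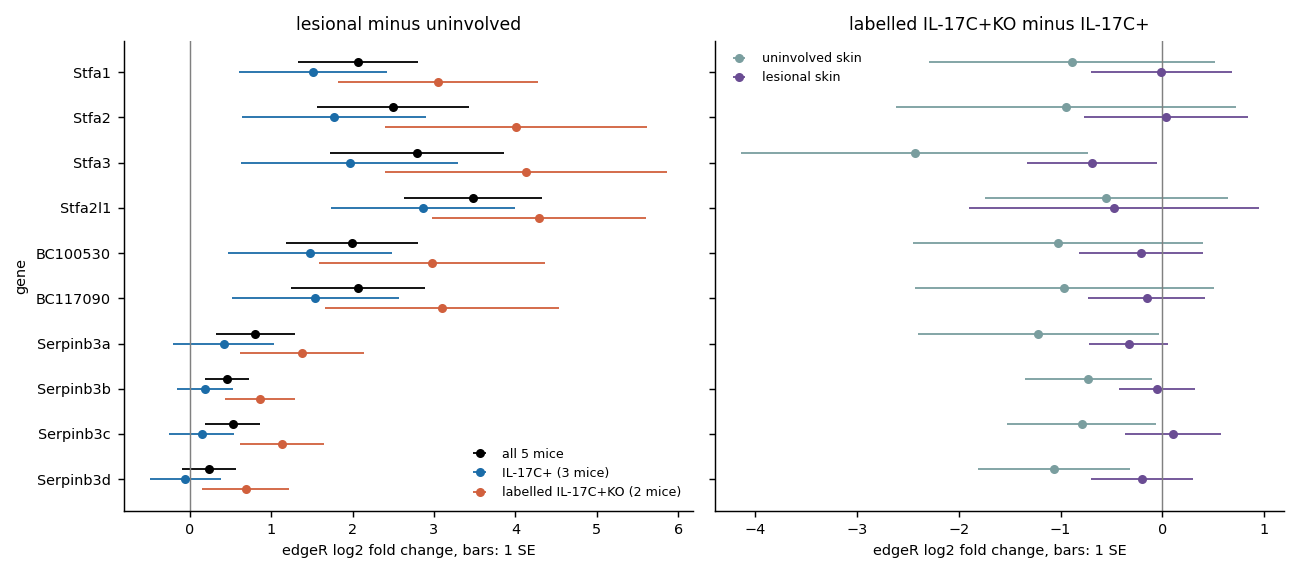
Log2 fold changes from edgeR (horizontal axes) for the 10 genes, with bars of 1 standard error derived from the F statistic. Lesional minus uninvolved skin is on the left, and the label IL-17C+KO minus IL-17C+ is on the right. On the left the stefin estimates sit between 1.47 and 4.29, above the Serpinb3 estimates of each comparison, and on the right most bars cross 0.

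The difference of the lesional effects between the genotype labels was tested directly, and no member passed (0% of all genes did; 188 genes had an unadjusted p under 0.05, none of them a member), nor did any in DESeq2, which called 0.0373%. The stefin genes differed by 1.42 (Stfa2l1) to 2.24 (Stfa2) log2 units, higher for the label IL-17C+KO, with standard errors of 1.51 to 2.18. The Serpinb3 genes differed by 0.67 to 0.98 with standard errors of 0.55 to 0.98. Without mouse 2465, 6 of the 10 differences were below 0, and the stefin median was -0.17 in place of 1.54. Without mouse 2392 the median was 3.65, and it was 0.69 without mouse 2237 and 2.43 without mouse 2275. A difference of the lesional effects between the labels was not detectable with these mice.

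In lesional skin alone, the 3 IL-17C+ mice had 2434, 2490 and 8675 CPM of summed stefin genes and the 2 mice labelled IL-17C+KO had 3442 and 3517, inside the range of the others. The median log2 fold change, IL-17C+KO minus IL-17C+, was -0.18 for the stefin genes and -0.13 for the Serpinb3 genes. The single estimates had standard errors of 0.38 to 1.42. No member passed edgeR's test (0% of all genes did; 1145 genes had an unadjusted p under 0.05, none of them a member). DESeq2 called 1.38% of all genes and no member. Direction depended on mouse 2296: without its lesional biopsy, 7 of 10 signs changed and the stefin median was 0.79. In that fit 5 of the 6 stefin genes were higher under IL-17C+KO at an unadjusted p under 0.05, as were 1075 of 15548 genes. With limma on the counts 5 of 10 signs changed, and the stefin median was 0.19.

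In uninvolved skin, the summed stefin genes came to 3012, 174 and 2991 CPM in the IL-17C+ mice and to 1478 and 83.9 CPM under the label IL-17C+KO. All 10 estimates were below 0, with medians of -0.95 (stefin) and -0.93 (Serpinb3), and Stfa3 was the lowest at -2.43 ± 1.71 (SE, 3 against 2 mice; adjusted p = 0.849 by edgeR). No member passed (0% of all genes did; 581 genes had an unadjusted p under 0.05, none of them a member), and DESeq2 called 0.0707% of all genes and no member. Mice under each label ranged from low to high, and without mouse 2465 only 7 of 10 estimates were below 0, with a stefin median of -0.01. Without mouse 2392 that median was -4.33, and it was -1.49 without mouse 2275 and -0.49 without mouse 2296. In the fit without mouse 2275, 2 of the 4 Serpinb3 genes were lower under IL-17C+KO at an unadjusted p under 0.05. So were 972 of 15367 genes. No member passed FDR 0.05 in that fit, which 241 genes did.

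Il17c itself varied with the same biopsies. In uninvolved skin it stood at 15175 CPM in mouse 2237, 1416 in 2275, 5396 in 2296, 1901 in 2392 and 535 in 2465, and in lesional skin at 10596, 10855, 12470, 2347 and 10881 CPM. As for the stefin genes, its lowest levels were in the uninvolved skin of mice 2465 and 2275, and it was lower in the lesional biopsy only in mouse 2237. Its part in the stefin and Serpinb3 values was not tested.

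Marker genes of other cell states also moved with these biopsies. Over 5 mice, 10.1% of all genes were higher in lesional skin at an unadjusted p under 0.05. All 12 activated keratinocyte markers measured, such as Krt6a, Krt6b and Lcn2, were among them. Their summed level was lowest in the uninvolved skin of mice 2465 and 2275, at 1432 and 1960 CPM, and highest in the lesional skin of mouse 2296, at 36708 CPM. These are the libraries with the lowest and the highest stefin sums. Mouse 2237, in which the stefin genes were not higher in the lesional biopsy, had 5987 CPM of these markers in its uninvolved and 11216 CPM in its lesional skin.

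Neutrophil markers (13 in the files) summed to 18.7 to 59.0 CPM in uninvolved skin. In lesional skin they reached 37.5 CPM in mouse 2237, 75.7 in 2275, 524 in 2296, 339 in 2392 and 435 in 2465. Of the 12 tested, 8 were higher at an unadjusted p under 0.05, against 10.1% of all genes. Each of the 13 had counts in every library, but Elane and Mpo, of immature neutrophils, reached no more than 0.438 and 1.45 CPM. Skeletal muscle markers were highest where the stefin and Serpinb3 genes were lowest, at 24479 CPM in the uninvolved skin of mouse 2275 and 34570 CPM in that of mouse 2465, and 6 of 8 were lower in lesional skin (11.5% of all genes were lower at that threshold). The uninvolved skin of mouse 2392 also held 20459 CPM of them. Hair follicle markers (10) went from 10198 to 7607 CPM between the uninvolved and the lesional biopsy of mouse 2237, from 21.5 to 8691 in 2275, from 2116 to 1143 in 2296, from 43.1 to 21.99 in 2392 and from 30.7 to 2434 in 2465, and none of the 10 reached an unadjusted p under 0.05. Monocyte and macrophage markers (8) summed to 413 to 865 CPM in uninvolved and 482 to 1642 CPM in lesional skin. The part of these cell types in the stefin and Serpinb3 values was not tested.

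**Figure D5:**
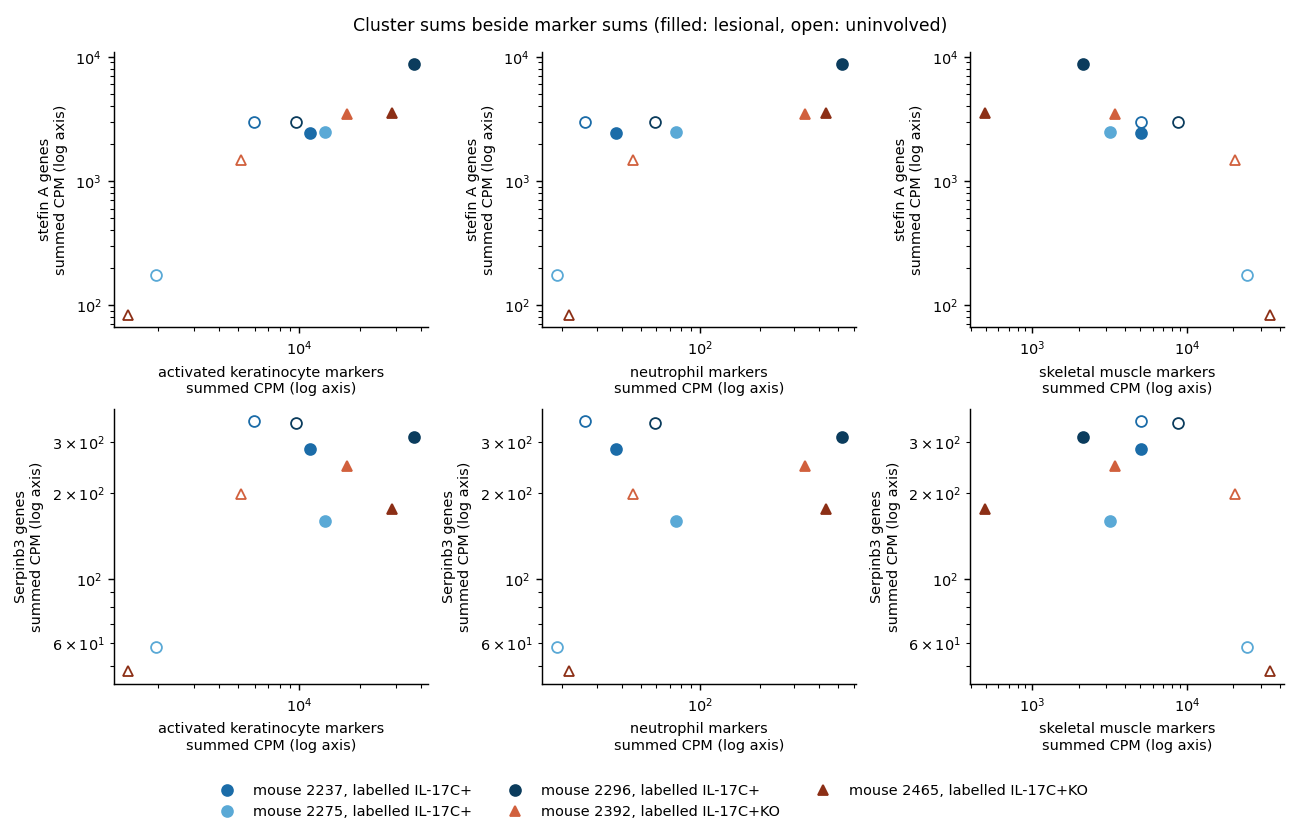
Summed CPM of the stefin A genes (upper row) and Serpinb3 genes (lower row) against the summed CPM of activated keratinocyte, neutrophil and skeletal muscle markers (log axes), 1 point per library, filled for lesional and open for uninvolved skin. The open points of mice 2275 and 2465 lie lowest in each panel, at 174 and 83.9 CPM for the stefin genes, and the filled point of mouse 2296 is the highest stefin sum, at 8675 CPM.

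Across the 10 libraries, which share 5 mice and are therefore not independent, the members also followed each other. Pearson's r of log2 CPM was 0.754 or above (median 0.981) in the 15 pairs of stefin genes, 0.834 to 0.987 (median 0.918) in the 6 pairs of Serpinb3 genes, and 0.492 to 0.929 (median 0.890) in the 24 pairs between clusters. Among 13435 genes, those most like the mean stefin profile were S100a8 (r = 0.991), Mettl9 (0.990), S100a9 (0.988), Pgam1 (0.988) and Defb3 (0.986). S100a8 and S100a9 encode the subunits of calprotectin, Defb3 a beta-defensin and Pgam1 a glycolytic enzyme. The ranges of these genes differ widely, from 19.2 to 4883 CPM for S100a8 and from 61.7 to 89.9 CPM for Mettl9.

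The Serpinb3 profile was most like a different set: Dpp3 (r = 0.988), Sptlc1 (0.984), Blmh (0.982), Teddm3 (0.978) and Cers3 (0.975). Blmh encodes bleomycin hydrolase, a cysteine protease of the epidermis, while Sptlc1 and Cers3 encode enzymes of sphingolipid and ceramide synthesis. Stfa2l1 was examined alone after its values had been seen. The genes most like it were Gm5483 (r = 0.983), a further stefin gene, then the chemokine gene Ccl3 (0.972), the myeloid lectin genes Clec4d (0.969) and Clec4e (0.959) and the chemokine gene Ccl4 (0.958).

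Further genes of the same families did not all move alike over the 5 mice. At an unadjusted p under 0.05, 10.1% of all genes were higher in lesional skin and 11.5% lower. Among 4 other stefin A cluster genes measured, 3 were higher in lesional skin at an unadjusted p under 0.05 and none lower. They were Gm5483 at 4.31 ± 1.03 log2 units, Gm5416 at 3.29 ± 1.11 and 2010005H15Rik at 3.07 ± 0.89, which is 96.9% identical to Gm5483 in coding sequence and may share its reads. In uninvolved skin these 3 were low, at no more than 1.73, 7.05 and 1.38 CPM in that order. Csta1, the remaining gene, was far more abundant, at 106 to 356 CPM over all libraries, and changed by only 0.12 ± 0.24. Of 18 other clade B serpins, 1 was higher and 8 were lower, with Serpinb7 at -2.44 ± 0.45, Serpinb1c at -1.55 ± 0.32 and Serpinb8 at -0.77 ± 0.16, all 3 lower in 5 of 5 mice. Of 4 other cystatins, Cst7 was higher (0.85 ± 0.35) and Cst3, which encodes the secreted cystatin C, lower (-0.62 ± 0.23).

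Papain-type cathepsins, neutrophil and mast cell serine proteases and other protease inhibitors were also measured. Over all genes, 10.1% were higher and 11.5% lower at an unadjusted p under 0.05. Of 10 papain-type cathepsins, 4 were higher at the unadjusted threshold and none lower, including Ctsc, which activates granule serine proteases, at 0.90 ± 0.24 log2 units, and Ctss, the cathepsin of antigen presentation, at 0.84 ± 0.23. Of 8 neutrophil and mast cell serine proteases tested, 5 were higher, including the mast cell chymases Mcpt4 (0.94 ± 0.23) and Cma1 (1.03 ± 0.26). Of 15 other epithelial and plasma protease inhibitors, 4 were higher and 2 lower. Spink12, a Kazal-type inhibitor, stood at 5.15 ± 1.14 and Wfdc21 at -1.32 ± 0.40. The Spink12 estimate rests on values near the floor. In the uninvolved skin of mice 2275, 2392 and 2465 it had 0.040, 0.045 and 0.038 CPM, less than 3 counts would give. No gene of any of these lists passed FDR 0.05 in edgeR.

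The sequences before the start sites were compared because the members of a cluster moved together. RefSeq promoters (GRCm38.p6) were matched for 9 of the 10 members, 8 by symbol and BC100530 by gene ID, and not for BC117090. Over 250 bases, identity was 69.9 to 89.4% among the 5 stefin promoters and 44.4 to 88.1% among the 4 Serpinb3 promoters. The longest run common to all 5 stefin promoters was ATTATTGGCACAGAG, 15 bases that begin between positions -247 and -222 counted from the RefSeq start site. It was sought after the sequences had been seen, and on that strand it occurs in 5 of 32851 promoters, which are these 5. It is in capitals in the stretches that follow, each 60 bases long. RefSeq and GENCODE place some starts differently: the ends of the Stfa1 and BC100530 stretches reach 12 and 13 bases into GENCODE exons.
Stfa1, chr16:36276903-36276962, forward strand: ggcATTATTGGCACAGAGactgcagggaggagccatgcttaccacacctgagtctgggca
Stfa2, chr16:36408551-36408610, reverse strand: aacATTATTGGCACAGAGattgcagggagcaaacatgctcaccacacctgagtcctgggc
Stfa3, chr16:36455581-36455640, reverse strand: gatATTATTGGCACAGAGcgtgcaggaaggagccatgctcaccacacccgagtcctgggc
Stfa2l1, chr16:36156561-36156620, forward strand: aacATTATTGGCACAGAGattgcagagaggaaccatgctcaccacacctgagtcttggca
BC100530, chr16:36367736-36367795, reverse strand: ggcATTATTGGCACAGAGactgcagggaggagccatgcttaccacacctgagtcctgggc

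The Serpinb3 promoters are shown over the last 80 bases before the RefSeq start site, with TATAAA, read on either strand, in capitals. It begins at positions -65, -41 and -31 of Serpinb3a, Serpinb3b and Serpinb3c, and the reverse letters TTTATA begin at -40 of Serpinb3d. Within 250 bases it was present in 12.4% of all promoters. The last 26 bases of the Serpinb3d stretch lie in a GENCODE exon, and the Serpinb3b stretch lies inside the longer GENCODE span of that gene but in none of its exons.
Serpinb3a, chr1:107052304-107052383, reverse strand: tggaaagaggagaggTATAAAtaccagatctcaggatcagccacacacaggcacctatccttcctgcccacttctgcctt
Serpinb3b, chr1:107161115-107161194, reverse strand: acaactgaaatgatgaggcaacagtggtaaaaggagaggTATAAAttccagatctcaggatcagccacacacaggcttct
Serpinb3c, chr1:107278372-107278451, reverse strand: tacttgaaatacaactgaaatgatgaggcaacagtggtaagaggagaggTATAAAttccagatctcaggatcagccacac
Serpinb3d, chr1:107083481-107083560, reverse strand: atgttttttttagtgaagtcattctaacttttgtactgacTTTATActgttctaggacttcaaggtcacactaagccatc

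Of 4 further motifs searched on both strands of the 250 bases, a C/EBP-type motif (TTGCNNAA) occurred in Stfa1, BC100530 and Serpinb3d. It was present in 9.6% of all promoters. The Stfa1 and BC100530 matches, which begin at -109 and -88, lie inside the GENCODE spans of these genes and not before them. The STAT motif TTCNNNGAA (7.0% of all promoters), the AP-1 motif TGANTCA (6.7%) and an NF-kB motif (1.4%) occurred in none of the 9. These are matches of letters in a fixed window and say nothing of binding.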

How the data were processed

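RNA was sequenced on an Illumina Genome Analyzer IIx, per the labels. The authors used cutadapt 1.6, TopHat2 2.0.12, HTSeq and Cufflinks 2.2.1 with mm10, per the submitters' processing notes. No source used here names the annotation, the strandedness of counting or how reads fitting several genes were treated. The deposited tables hold a raw count and an FPKM value per gene symbol, per the file headers. Deposited FPKM followed the counts: for each member CPM over FPKM varied at most 1.08-fold between libraries, so the scales are not independent.

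Counts of all genes were fitted in R 4.3.3 with edgeR 4.0.16 (filterByExpr, TMM, robust quasi-likelihood F tests, Benjamini-Hochberg adjustment over all genes tested, threshold 0.05). Lesional and uninvolved skin were compared with the mouse as a block, in a fit of all 10 libraries with 1 common or 1 lesional effect per label. Genotype labels were compared within each skin type over 5 mice. Each edgeR standard error was derived as the absolute log2 fold change divided by the square root of F. Log2 CPM used a prior count of 2. The pairing comes from the design text and the mouse numbers. Deviations of the 2 biopsies of a mouse from their group means correlated at r = -0.12 to 0.03 over genes. The mouse is the replicate, and no 2 libraries held identical values (highest r 0.995). The fit was tested on simulated data. Named genes were all 10 members, up to 3 genes per list by smallest p (1 of them is not reported here), and the 5 genes most like the mean log2 CPM of each cluster with a mean of at least 2 CPM. Members and lists were chosen with earlier results of these data known. Alternatives were size factors, filters, DESeq2 1.42.0, limma 3.58.1 on counts and on log2(FPKM + 0.1) or log2(FPKM + 1), no block, and each mouse left out. Coding and transcript sequences came from GENCODE M21 (GRCm38) and promoters from RefSeq.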

Additional observations from a re-analysis of the deposited data

Results flagged for a closer look

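In lesional skin, mouse 2296 stood apart from the other 4 mice for 4 stefin genes. Its gap to the next mouse, as a share of the range over 5 mice, was 0.890 for Stfa3 (3533 CPM beside 928 to 1215), 0.729 for Stfa2l1 (50.8 beside 1.57 to 14.9), 0.768 for BC100530 (3180 beside 904 to 1432) and 0.747 for BC117090 (658.8 beside 200.2 to 316.1). Dixon's 95% critical value for 5 values is 0.71. Chance flags about 1 in 20 groups when values are normally distributed. The gaps were taken on untransformed CPM and were not computed on log2 CPM, so the flags may depend on the scale. These genes are also correlated and share reads, so the 4 flags are not separate observations. Serpinb3 genes were not flagged in this biopsy.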

How the results depend on the processing

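In edgeR no member passed FDR 0.05 in any of the 6 comparisons. With DESeq2, 6 members passed over all 5 mice, 1 within IL-17C+ and 6 within IL-17C+KO. Leaving 1 mouse out gave 0 to 1 over all 5 mice (1 without replicate 2237, where 1249 of 15934 genes passed). In the other 5 comparisons the number stayed at 0 each time 1 IL-17C+ mouse was left out. Other size factors, filters, limma on counts or FPKM, and no replicate block gave 0 throughout. Without the block, 891 of 16083 genes passed over all 5 mice, against 8 with it. The paired design mattered for size: over all 5 mice without the replicate block, the stefin log2 fold changes ran from 1.34 (BC100530) to 3.70 (Stfa2l1) and the Serpinb3 ones from 0.14 to 0.42. Within IL-17C+, Serpinb3a was -0.062 without the block, and Serpinb3d was 0.073 with log2(FPKM + 0.1) and 0.003389 with log2(FPKM + 1). With 1 mouse left out, log2 values within IL-17C+ ran from -0.34 to 0.90 (Serpinb3a), -0.081 to 0.48 (Serpinb3b), -0.021 to 0.31 (Serpinb3c) and -0.37 to 0.35 (Serpinb3d). The difference between labels ran from -0.036 (without 2465) to 5.46 (without 2392) for Stfa2. In lesional skin, IL-17C+KO minus IL-17C+ ran from -1.01 to 0.15 for Stfa3 and from -0.87 to 0.033 for Serpinb3a. The cause was not tested. Arms left with 1 mouse were assumed to vary like the others.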
